A study of Mus musculus with 33 samples.

Results

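The experiment described here asks whether mRNAs are lost at different rates in 2 genotypes of mouse neural stem cells once new transcription is stopped. It uses the 18 RNA-seq samples of a series of 33 samples, chosen by their labels. The cells were hippocampal neural stem cells from mice at postnatal day 0.5, expanded as adherent cultures with bFGF and EGF. One genotype is labelled Nestin-WT. The other is labelled Nestin-cKO, a conditional knockout of Ythdf2 whose label names Nestin, a gene whose promoter is widely used to drive Cre in neural progenitors. All 18 samples, WT included, belong to a course of 5 µM actinomycin D, an inhibitor of transcription, sampled at 0, 2 and 4 h, with 3 samples per genotype and hour. The replicate numbers were taken to tie the 3 hours into 6 cultures, 3 WT and 3 cKO-labelled. The labels do not say whether the cultures came from separate animals. In the time course each culture had its own starting level, and 1 line over the hours was fitted per genotype. The p-values there measure the scatter of samples around those lines, which may be technical. They do not measure the spread between cultures or animals, and the hours of 1 culture count as separate samples. The other 15 samples of the series, all from WT cells, are 3 m6A pull-downs with 3 inputs, and 3 pull-downs each with YTHDF2 antibody and control IgG with another 3 inputs. They serve here only to describe the genes found.

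YTHDF2 is a cytoplasmic reader of N6-methyladenosine (m6A), a methyl mark that writer enzymes place on adenosines of mRNA, mostly near stop codons and in 3′ UTRs. YTHDF2 bound to a marked transcript recruits the CCR4-NOT deadenylase, which shortens the poly(A) tail and sends the mRNA to decay. In neural progenitors m6A is known for marking transcripts of transcription factors and regulators that have to be cleared as cells change state.

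For each of 14029 genes that passed a filter on low counts, the level was followed as log2 CPM (counts scaled to the library's total and composition) against hours of actinomycin D. The slope is the change in log2 CPM per hour, and each culture had its own starting level in the fit. The slope difference is the cKO-labelled slope minus the WT slope: a positive value is a slower loss, or a larger gain, in the cKO-labelled cultures. CPM are shares of a library. A gene can therefore rise in CPM without new transcription, because other RNAs are lost faster. Total counts ran from 10257329 to 21353383 per RNA-seq sample.

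Ythdf2 itself went against its label. Its level at 0 h was 219, 253 and 258 CPM in WT and 3117, 1035 and 736 CPM in the cKO-labelled cultures. After 4 h it was 63, 60.4 and 88.5 CPM in WT and 1418, 1362 and 1432 CPM in the cKO-labelled cultures. All 9 cKO-labelled samples lay above all 9 WT samples. A count over the whole gene (GRCm38.p6, chromosome 4, 132184916 to 132212256) cannot show whether single exons are missing, nor whether the labels were exchanged, which would turn the sign of every slope difference. The genotype is therefore given throughout as the label. Ythdf2 mRNA fell in WT, with a slope of -0.45 per hour (SE 0.0877, adjusted p = 0.000454), and had a slope of -0.0014 (SE 0.092, adjusted p = 0.993) in the cKO-labelled cultures. The slope difference was 0.45 (SE 0.126, adjusted p = 0.101), which did not pass the threshold of 0.05. The genotype difference in its change from 0 to 4 h did pass, at 1.79 on the log2 scale (SE 0.436, adjusted p = 0.0495). Culture 1 among the cKO-labelled, which was highest at 0 h, had a slope of -0.28, against 0.10 and 0.24 in the other two. Without that 0 h sample the Ythdf2 slope difference was 0.62 (adjusted p = 0.00341), in a fit that called 494 genes in all, against 89 in the main fit. It was the only 1 of the 18 fits leaving out 1 sample in which Ythdf2 passed. Over those 18 fits its slope difference ran from 0.37 to 0.62, with adjusted p values up to 0.274.

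The labelled cell type was checked with 13 marker genes of neural stem cells. Fabp7, Slc1a3, Sox9 and Vim, which mark radial glia and neural stem cells, never fell below 244 CPM in any sample. Msi1, an RNA-binding marker of the same cells, was close to absent, at 0.534 CPM or less. The summed CPM of 20 fibroblast and meningeal markers was 632 to 1106 in WT samples and 825 to 3466 in cKO-labelled samples. The summed CPM of 18 astrocyte markers was 6750 to 17200 in WT and 2796 to 8090 in cKO-labelled samples. Of 13 microglial markers, 10 stayed under 1 CPM in every sample. These marker differences run with genotype, and their part in the slope differences was not tested.

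Of the 14029 genes, 65 (0.463%) had a higher slope in the cKO-labelled cultures and 24 (0.171%) a lower one, at an adjusted p under 0.05, 0.634% in either direction. Of all genes, 3201 rose (22.8%) and 3989 fell (28.4%) in WT, 51.3% in either direction, while 2821 rose (20.1%) and 3127 fell (22.3%) in the cKO-labelled cultures, 42.4% in either direction. A further test of the change from 0 to 4 h alone called 199 genes higher (1.42%) and 97 lower (0.691%), 2.11% in either direction. The median slope difference over all genes was 0.014. The 3 culture slopes of one genotype lay all above or all below the 3 of the other in 2788 genes (19.9%), and in all 89 called genes. In the scatter of slopes, the 65 lie above the diagonal on the side of genes lost in WT, and nearly all of the 24 lie on the side of genes whose share grew in WT. The split between the directions moved with the scaling. It was 46 higher and 54 lower with RLE factors, 132 and 16 with library size alone, and 23 and 5 with scaling to ribosomal protein genes. It was 159 and 23 with limma on the deposited TPM, which changes the values and the test together. Of the 89, 86 were also called by DESeq2, which called 276 higher and 281 lower. Taking the samples as independent, with no culture term, left 1 gene higher and 0 lower.

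**Figure D1:**
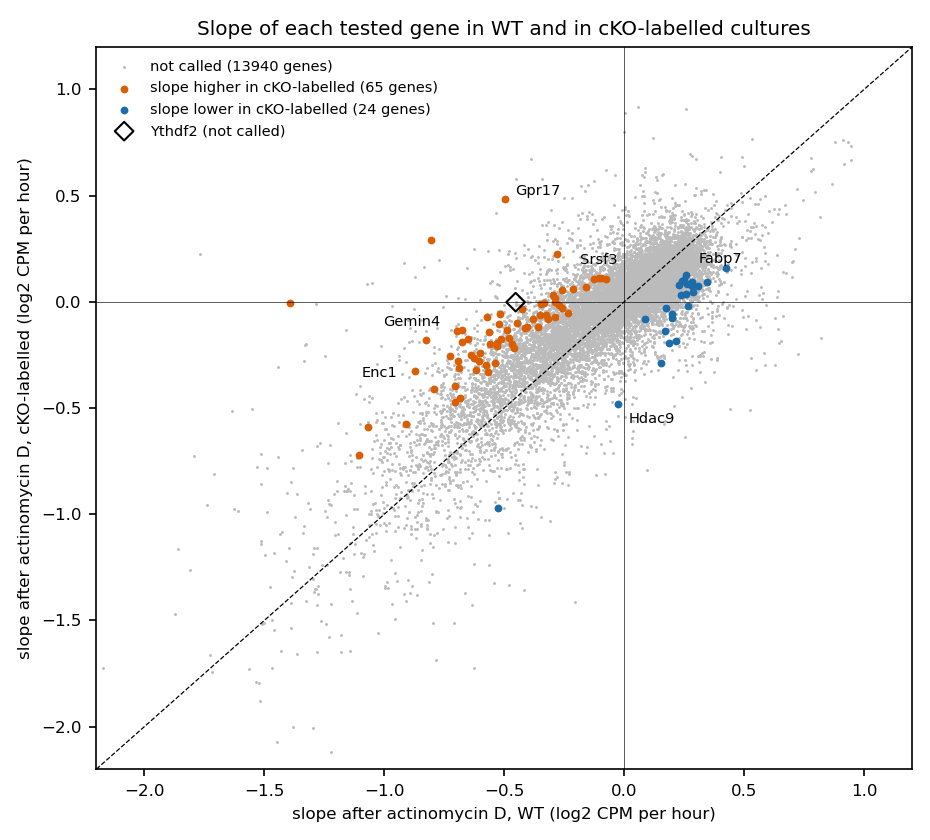
Slope in WT (x axis) against slope in cKO-labelled cultures (y axis), both in log2 CPM per hour, for each tested gene, with 8 uncalled genes outside the axes; the dashed line marks equal slopes. The 65 orange genes all fell in WT and lie above the line, the 24 blue genes lie below it, and Ythdf2 (diamond) lies among the orange genes without passing the test.

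The 65 genes with a higher slope were transcripts lost in WT and lost more slowly, or not detectably, in the cKO-labelled cultures. All 65 fell in WT, with a median slope of -0.52 per hour. In the cKO-labelled cultures the median slope was -0.13: 32 of the genes fell, 27 had no slope that passed the test and 6 rose. With scaling to ribosomal protein genes 59 fell and 0 rose there. The genotype difference had the sign of the slope difference from 0 to 2 h (median 0.70) and from 2 to 4 h (median 0.57) in all 65. Of all 14029 genes, 10904 and 10043 had that sign in the first and the second interval. Both intervals are part of the slope that chose the 65, so the shared sign is largely built in. The 2 genotypes also differed in where these genes started. At 0 h, 53 of the 65 were lower in the cKO-labelled group, with a median level difference of -0.46 on the log2 scale, and in 35 of them all 3 cKO-labelled samples lay below all 3 WT samples, against 24% of all genes. At 4 h only 4 were lower, the median level difference was 0.76, and in 48 genes all 3 cKO-labelled samples lay above all 3 WT samples, against 19.9% of all genes. The 0 h and 4 h samples enter both the levels and the slopes, so these level differences are a description of the same data.

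Bag5, a co-chaperone that acts on Hsp70, had the smallest adjusted p of the whole comparison. It lies at chromosome 12, 111709488 to 111713256. Its level in WT fell from 95.7, 114 and 107 CPM at 0 h through 33.5, 42.6 and 41 CPM at 2 h to 13.4, 17.9 and 15.9 CPM at 4 h. In the cKO-labelled cultures it went from 122, 109 and 108 CPM through 81.7, 79.1 and 63.4 CPM to 45.3, 43.2 and 53.4 CPM. The genotypes overlapped at 0 h and were fully apart at 2 and 4 h. The WT slope was -0.69 and the cKO-labelled slope -0.31, a difference of 0.38 (SE 0.0454, adjusted p = 0.00478). Bag5 stayed called in 17 of the 18 fits that leave out 1 sample, the most of the 89 called genes, whose median was 6 and whose lowest was 2.

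Enc1, which encodes a kelch-type actin-binding protein of the developing nervous system (chromosome 13, 97241105 to 97253040), had the largest slope difference among called genes whose mean log2 CPM was 3 or above. In WT it measured 82.6, 86 and 111 CPM at 0 h, 18.7, 18.8 and 20.2 CPM at 2 h and 9.6, 7.92 and 7.96 CPM at 4 h. The cKO-labelled cultures held 37.1, 40.8 and 33.7 CPM at 0 h, 42.6, 21.6 and 24.7 CPM at 2 h and 20, 11.5 and 15.4 CPM at 4 h. The order of the genotypes thus turned over: every WT sample was above every cKO-labelled sample at 0 h and below it at 2 and 4 h. The slopes were -0.87 and -0.32, and their difference was 0.55 (SE 0.0897, adjusted p = 0.0151).

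Gemin4, a subunit of the SMN complex that assembles spliceosomal snRNPs (chromosome 11, 76210571 to 76217572), was close behind. WT cultures held 35.9, 31.4 and 36.1 CPM at 0 h and 4.96, 7.54 and 4.07 CPM at 4 h. The cKO-labelled cultures held 18.5, 39.7 and 29.5 CPM at 0 h and 19.3, 24.3 and 17.1 CPM at 4 h. The groups overlapped at 0 h and did not at 4 h. The slope was -0.68 in WT and -0.13 in the cKO-labelled cultures, where it did not pass the test (adjusted p = 0.154), and the difference was 0.54 (SE 0.102, adjusted p = 0.0283).

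Signalling and regulatory genes made up part of the 12 largest differences. Camk1d, a calcium/calmodulin-dependent kinase, had slopes of -0.68 in WT and -0.19 in the cKO-labelled cultures, and Pde4d, a phosphodiesterase that breaks down cAMP, -0.73 and -0.25. For Pde4d the starting levels also differed, with 35.8, 33.3 and 36.8 CPM in WT and 14.1, 11.7 and 8.05 CPM in the cKO-labelled cultures at 0 h. At 4 h the 2 genotypes overlapped, at 3.58, 6.4 and 4.59 CPM against 8.07, 3.9 and 5.11 CPM. Zfp828 (Champ1, a zinc finger protein of kinetochore attachment) was lost fastest of the 12 in both genotypes, with slopes of -1.07 and -0.59. Asb8, a SOCS-box protein, had slopes of -0.64 and -0.25, and Dcun1d4, a factor of cullin neddylation, -0.56 and -0.14. For these 5 genes the slope differences were 0.49, 0.47, 0.48, 0.39 and 0.42, with adjusted p values of 0.0151, 0.0211, 0.0211, 0.0353 and 0.0416. Mitochondrial factors were the other kind. Mterfd2 (Mterf4, needed for assembly of the mitochondrial ribosome) had slopes of -0.65 and -0.18, and Tmem11, a protein of the inner mitochondrial membrane, -0.79 and -0.41.

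**Figure D2:**
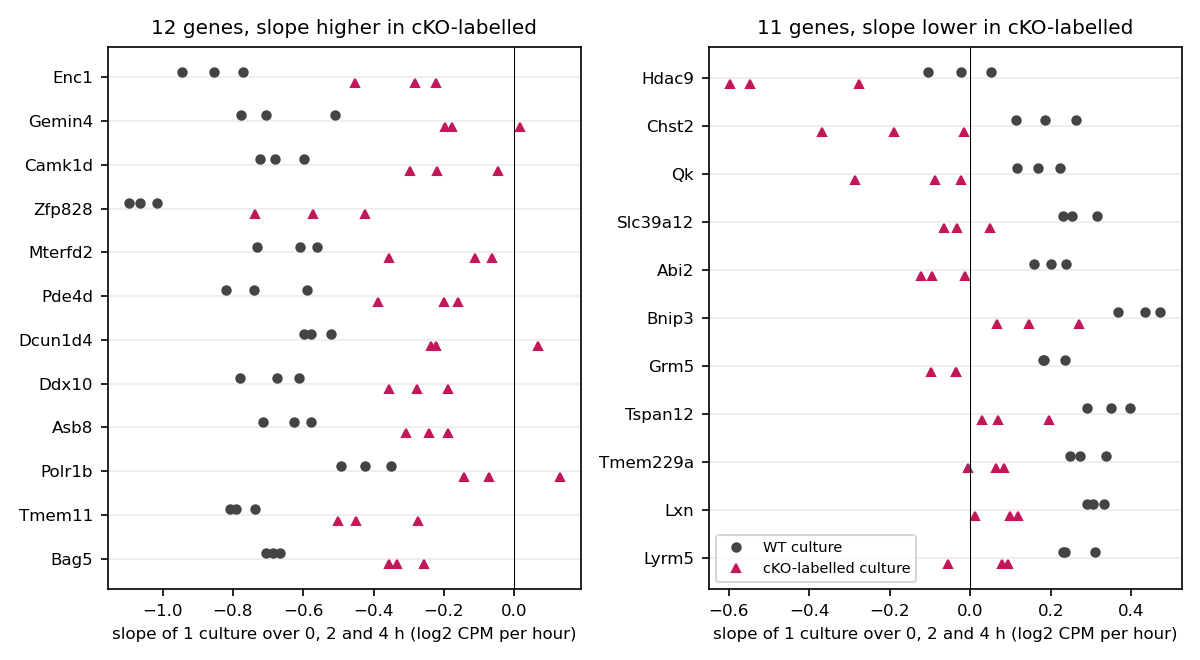
Slope of each culture in log2 CPM per hour (x axis) for 12 genes with the largest positive (left) and 11 with the largest negative (right) slope differences among called genes; grey circles are the 3 WT cultures and pink triangles the 3 cKO-labelled cultures. Non-overlap of the 2 sets of cultures was part of the rule that chose these genes.

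Genes that build ribosomes stood out by their number among the 65. A list of 93 ribosome biogenesis factors, drawn up after the slope differences had been seen and so not independent of them, was tested in full. Of the 93, 8 had a higher slope and 0 a lower one, against 0.463% and 0.171% of all genes. Their median slope was -0.28 in WT and -0.14 in the cKO-labelled cultures, their median slope difference 0.13 against 0.014 for all genes, and 82 of 93 differences were positive. In 41 of 93 all 3 cKO-labelled culture slopes lay above the WT ones, against 12.1% of all genes, and in 1 below, against 7.81%. The median stayed between 0.088 and 0.136 in the fits that leave out 1 sample, while the number called ran from 0 (without WT sample 1 or 3 at 0 h, or 1 or 3 at 4 h) to 17 (without cKO-labelled sample 1 at 0 h). The fit with 17 called 275 genes higher in all, against 65 in the main fit.

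Ddx10, an RNA helicase of 18S rRNA maturation (chromosome 9, 53098454 to 53248170), was the ribosome biogenesis factor among the 12 largest differences of genes with a mean log2 CPM of 3 or above. It fell in WT from 44.1, 35 and 34 CPM at 0 h to 17.8, 16.1 and 17.6 CPM at 2 h and 4.96, 6.3 and 5.11 CPM at 4 h. The cKO-labelled cultures held 33.2, 32.1 and 26.6 CPM, then 14.3, 17.2 and 15.3 CPM, then 12.2, 14.8 and 15.8 CPM. The genotype difference was 0.15 over the first interval (SE 0.229) and 1.54 over the second (SE 0.241, adjusted p = 0.209 over all genes), neither past the threshold. The slopes were -0.69 and -0.28, a difference of 0.41 (SE 0.0777, adjusted p = 0.0283).

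The other called members of that list cover several steps. Nolc1, a nucleolar phosphoprotein that works with small nucleolar RNPs, had slopes of -0.35 in WT and -0.06 in the cKO-labelled cultures. Shq1, an assembly factor of H/ACA small nucleolar RNPs, had slopes of -0.69 and -0.14, and its level at 4 h was 1.57, 3.25 and 2.46 CPM in WT against 7.44, 7.81 and 5.89 CPM in the cKO-labelled cultures. Mphosph10, a component of the small-subunit processome, was lost fast in both genotypes, with slopes of -0.91 and -0.57. Lsg1, a GTPase that acts late on the large subunit, had slopes of -0.48 and -0.17, Dhx33, a nucleolar helicase, -0.32 and -0.06, and Mki67ip (Nifk, a nucleolar binder of Ki-67) -0.46 and -0.22. Gpatch4 completed the set with -0.62 and -0.27. Their slope differences were 0.29, 0.56, 0.33, 0.31, 0.26, 0.24 and 0.36 in the order given, with adjusted p values from 0.0151 to 0.0468.

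The RNA polymerases that make rRNA and tRNA were represented too. Of 33 subunits and factors of RNA polymerases I and III, a list also drawn up afterwards, 3 had a higher slope and 0 a lower one, against 0.463% and 0.171% of all genes, and the median slope difference was 0.086. Non-overlapping culture slopes were near the share of all genes, with 5 of 33 above (12.1% of all genes) and 3 below (7.81%). Polr1b, a catalytic-core subunit of RNA polymerase I (chromosome 2, 129100970 to 129128060), went in WT from 24.5, 17.4 and 15.6 CPM at 0 h to 6.15, 5.25 and 5.82 CPM at 4 h. The cKO-labelled cultures began at 11.4, 17.2 and 8.68 CPM and ended at 16.4, 11.5 and 7.09 CPM. They had no common direction, and their slope of -0.035 did not pass the test (adjusted p = 0.647). The slope difference was 0.39 (SE 0.0807, adjusted p = 0.0403). Polr1e, another RNA polymerase I subunit, had slopes of -0.26 and 0.05, a difference of 0.31 (adjusted p = 0.0381). Polr3f, a subunit of RNA polymerase III, fell in both genotypes, at -0.54 and -0.29, a difference of 0.25 (adjusted p = 0.0397). No member of this list was called without any 1 of the 9 WT samples, without any 1 of the 3 cKO-labelled samples at 4 h, without cKO-labelled sample 2 at 2 h or with scaling to ribosomal protein genes. Of 75 mitochondrial ribosomal proteins, the third list drawn up afterwards, 1 was called higher (Mrpl15, slope difference 0.18, adjusted p = 0.0406) against 0.463% of all genes. Culture slopes of the cKO-labelled lay all above those of WT in 24 of the 75, against 12.1% of all genes, and all below in 7, against 7.81%.

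Regulators of growth and RNA processing were among the remaining genes, picked as examples after their values were seen. Larp1, an RNA-binding protein that controls mRNAs of the translation machinery, measured 50, 48.7 and 53.8 CPM at 0 h and 14.1, 12.5 and 12.6 CPM at 4 h in WT. It measured 37.6, 51.4 and 33.9 CPM, then 28.3, 30.8 and 25.7 CPM, in the cKO-labelled cultures. Its slope difference was 0.36 (SE 0.0583, adjusted p = 0.0151). Mtor, the kinase of the growth-control complexes, went from 30.3, 28.3 and 29.6 CPM to 17.8, 19.1 and 19.8 CPM in WT and from 27.8, 27.9 and 31.5 CPM to 36.1, 32.1 and 38.3 CPM in the cKO-labelled cultures. The genotypes overlapped at 0 h and were apart at 4 h, with a slope difference of 0.23 (SE 0.047, adjusted p = 0.0383). Srsf3 and Ptbp1 were the 2 called members among 32 SR proteins and splicing regulators, both higher, against 0.463% of all genes. The list as a whole did not share that direction: 22 of 32 differences were negative, with a median of -0.052. In the change from 0 to 4 h 3 genes were lower and 2 higher, against 0.691% and 1.42% of all genes. Culture slopes of the cKO-labelled lay all below those of WT in 6 of the 32, against 7.81% of all genes. They lay all above in 4, near the 12.1% of all genes. Srsf3, a splicing activator, fell in WT (slope -0.10) and rose in the cKO-labelled cultures (0.11, which becomes -0.073 with scaling to ribosomal protein genes), a difference of 0.21 (adjusted p = 0.0237). Ptbp1, a splicing repressor that is high in neural progenitors, had a difference of 0.23 (adjusted p = 0.0409).

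A few of the 65 rest on very few reads. Sgpp2, Gpr17 and Gm19966 had 3 or fewer counts in at least 1 sample. Gpr17, a receptor of the oligodendrocyte lineage, measured 8.16, 11.5 and 6.7 CPM at 0 h and 1.63, 3.15 and 1.88 CPM at 4 h in WT. It never passed 0.512 CPM (8 counts) in a cKO-labelled sample, so its slope of 0.49 there, and the difference of 0.98 (SE 0.199, adjusted p = 0.0383), describe a gene near the detection limit in 1 genotype.

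The 24 genes with a lower slope were of another kind. In WT 22 of them rose as a share of the library, with a median slope over the 24 of 0.24, while 1 fell. In the cKO-labelled cultures the median was 0.034: 8 rose, 8 fell and 8 had no slope that passed the test, and 6 genes rose in WT and fell in the cKO-labelled cultures. They were more abundant transcripts, with a median log2 CPM of 9.11 against 4.54 for the 65 and 3.39 for all genes. At 4 h all 3 cKO-labelled samples lay below all 3 WT samples in 19 of the 24 genes, against 18.2% of all genes. At 0 h they lay all below in 7 and all above in 4, near the 24% and 17.3% of all genes. The sign of the within-genotype slopes depends on the scaling. Cytosolic ribosomal protein genes, whose median slope was 0.19 in both genotypes, give another reference. Relative to them, the median slope of all genes was -0.18 in WT and -0.17 in the cKO-labelled cultures. On that scale 7 of the 24 rose and 3 fell in WT, while 0 rose and 22 fell in the cKO-labelled cultures. The differences between genotypes kept their sign in all 24, which were chosen for that difference.

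Hdac9, a class IIa histone deacetylase (chromosome 12, 34047580 to 34917095), had the largest negative difference. It was steady in WT, at 47.7, 55.3 and 62.2 CPM at 0 h and 55.1, 51.9 and 46.4 CPM at 4 h. In the cKO-labelled cultures it started at 51.6, 60.8 and 51.5 CPM, was down to 27.1, 16.4 and 12.2 CPM at 2 h and reached 23.8, 11.5 and 11.2 CPM at 4 h. The genotypes overlapped at 0 h and were apart from 2 h on. The WT slope of -0.026 did not pass the test (adjusted p = 0.778), the cKO-labelled slope was -0.48, and the difference was -0.46 (SE 0.0958, adjusted p = 0.0405).

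RNA-binding, receptor and signalling genes followed. Qk, the RNA-binding protein quaking (chromosome 17, 10206471 to 10319361), measured 7169, 8845 and 8343 CPM at 0 h and 11445, 12174 and 15474 CPM at 4 h in WT. It measured 13295, 4341 and 3738 CPM and then 5994, 4058 and 2921 CPM in the cKO-labelled cultures. The first of these cultures stood far above the other two at 0 h and less so later. Chst2, a carbohydrate sulfotransferase, measured 1977, 802 and 715 CPM at 0 h in the cKO-labelled cultures against 249, 409 and 328 CPM in WT. The slope differences were -0.31 for Qk and -0.38 for Chst2, with adjusted p values of 0.0405 and 0.0283. Without cKO-labelled sample 1 at 0 h they were smaller, at -0.22 and -0.29. Both genes stayed called there, but so did all 89 called genes, in a fit that called 494 genes in all. Grm5, a metabotropic glutamate receptor, had slopes of 0.20 in WT and -0.06 in the cKO-labelled cultures, and Abi2, an adaptor of the WAVE complex that drives actin branching, 0.20 and -0.08. Both kept their call in 15 of the 18 fits that leave out 1 sample, against 4 for Hdac9, 7 for Qk and 12 for Chst2.

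Bnip3, a mitophagy receptor induced by hypoxia (chromosome 7, 138890836 to 138909506), rose in share in both genotypes, although the cKO-labelled slope becomes -0.028 with scaling to ribosomal protein genes. WT cultures held 317, 333 and 296 CPM at 0 h and 1174, 921 and 990 CPM at 4 h. The cKO-labelled cultures held 56.8, 84.6 and 97.2 CPM at 0 h and 120, 127 and 117 CPM at 4 h, below WT at every hour. The slopes were 0.42 and 0.16, a difference of -0.27 (SE 0.0515, adjusted p = 0.034). Slc39a12, a zinc transporter, was likewise lower at every hour in the cKO-labelled cultures, with slopes of 0.27 and -0.02. Tspan12, a tetraspanin of Norrin signalling, had slopes of 0.35 and 0.10, Lxn, a carboxypeptidase inhibitor, 0.31 and 0.07, Lyrm5 (Etfrf1, a mitochondrial regulator of electron-transfer flavoprotein) 0.26 and 0.04, and Tmem229a 0.29 and 0.05. The differences of these 5 genes ran from -0.28 to -0.22, with adjusted p values from 0.0272 to 0.0397.

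**Figure D3:**
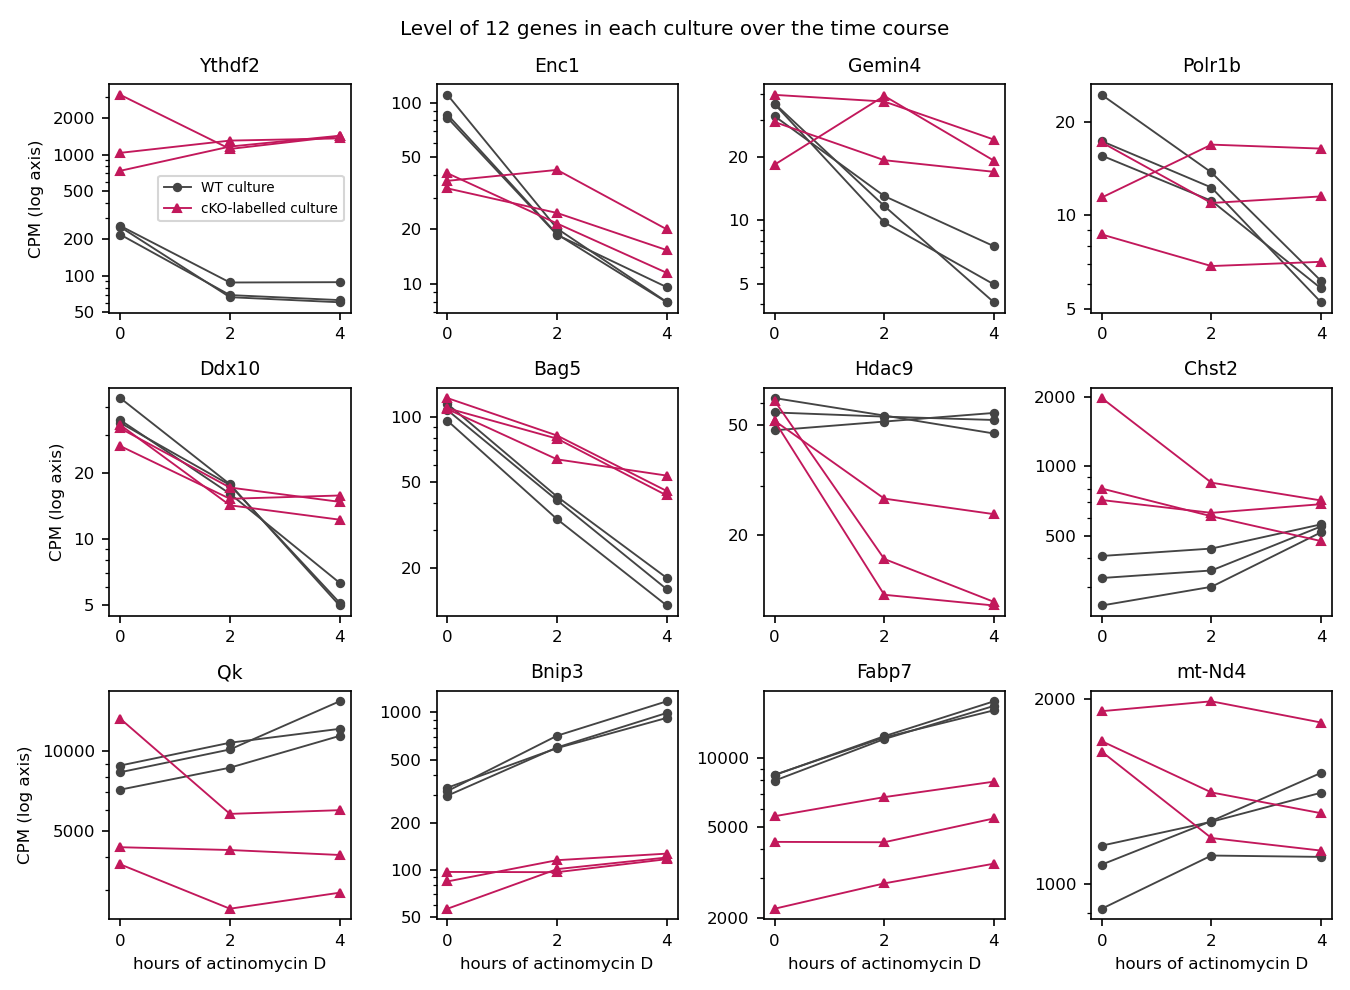
Level in CPM (log axis) at 0, 2 and 4 h of actinomycin D (x axis) in each culture for 12 genes; grey circles are the 3 WT cultures and pink triangles the 3 cKO-labelled cultures. Ythdf2 is higher in every cKO-labelled sample, Enc1 crosses over between 0 and 2 h, Bag5 falls less steeply in the cKO-labelled cultures, Ddx10 flattens there after 2 h, Hdac9 falls there alone, and 1 cKO-labelled culture stands far above the others at 0 h for Ythdf2, Chst2 and Qk.

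Of 37 markers of quiescent neural stem cells and radial glia, 3 had a lower slope and 0 a higher one, against 0.171% and 0.463% of all genes, and the median slope difference was -0.068. Culture slopes of the cKO-labelled lay all below those of WT in 9 and all above in 4, against 7.81% and 12.1% of all genes. Without cKO-labelled sample 1 at 0 h 9 were lower and 1 higher, in a fit that called 219 genes lower and 275 higher in all. Without WT sample 1 or 3 at 0 h, WT sample 3 at 4 h or cKO-labelled sample 3 at 4 h 0 were called. The 3 were Fabp7, Nfib and Nfia. Fabp7, the brain fatty-acid-binding protein of radial glia, rose in WT from 7981, 8440 and 8461 CPM to 16928, 17735 and 16195 CPM. In the cKO-labelled cultures it went from 4306, 5577 and 2197 CPM to 5453, 7897 and 3457 CPM, below WT at every hour. The slopes were 0.26 and 0.12, a difference of -0.13 (SE 0.0276, adjusted p = 0.0397). Nfib, a transcription factor of gliogenesis, had slopes of 0.18 and -0.03, a difference of -0.21 (SE 0.0332, adjusted p = 0.0151). Its partner Nfia had 0.28 and 0.08, also a difference of -0.21 (SE 0.0448, adjusted p = 0.0453). Of 18 astrocyte markers 0 were called, 16 had a negative difference, and the median was -0.087. The lower summed astrocyte markers of the cKO-labelled samples, given above, run with these values.

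Glycolysis and hypoxia genes leaned the same way as Bnip3. Of 32, 1 was called lower in slope and 4 in the change from 0 to 4 h, against 0.171% and 0.691% of all genes. In slope, 5 were called without cKO-labelled sample 1 at 0 h and 3 without its sample at 2 h, while DESeq2 called 5. Those fits called 219, 52 and 281 genes lower in all, against 24 in the main fit. With no culture term, ribosomal scaling or TPM 0 were called, and likewise without any 1 WT sample at 0 h, WT sample 2 or 3 at 2 h, WT sample 1 or 3 at 4 h, cKO-labelled sample 2 at 0 h, or cKO-labelled sample 2 or 3 at 4 h. The median slope was 0.25 in WT and 0.11 in the cKO-labelled cultures, and in 14 of the 32 all 3 cKO-labelled culture slopes lay below the WT ones, against 7.81% of all genes. Bnip3l, a mitophagy receptor related to Bnip3, Vegfa, the angiogenic growth factor, and Pdk1, which restrains pyruvate dehydrogenase, had differences of -0.19, -0.40 and -0.25 but missed the threshold at adjusted p values of 0.0524, 0.0747 and 0.0757.

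Mitochondrially encoded mRNAs are made by a separate polymerase inside the mitochondrion. Of the 8 that passed the filter, 1 was called lower in slope (0.171% of all genes), 3 in the change from 0 to 4 h (0.691%), and 6 had cKO-labelled culture slopes all below those of WT (7.81%). Without cKO-labelled sample 1 at 0 h or at 2 h 3 were called, in fits that called 219 and 52 genes lower in all. When any other sample was left out 0 were called, apart from cKO-labelled sample 3 at 0 h or 2 h and WT sample 1 at 2 h. DESeq2 called 4, among 281 genes lower in all, and 0 were called with no culture term or with library size alone. The median slope was -0.035 in WT and -0.21 in the cKO-labelled cultures. mt-Nd4, a subunit of complex I, measured 913, 1077 and 1156 CPM at 0 h and 1108, 1516 and 1408 CPM at 4 h in WT. In the cKO-labelled cultures it measured 1640, 1706 and 1908 CPM and then 1134, 1304 and 1829 CPM. All cKO-labelled samples were above WT at 0 h, and the groups overlapped at 4 h, with a slope difference of -0.17 (SE 0.0353, adjusted p = 0.0397). The complex I mRNAs mt-Nd5, mt-Nd2 and mt-Nd6 had differences of -0.23, -0.19 and -0.21, with adjusted p values of 0.0579, 0.0782 and 0.0958. Reads of mitochondrial genes that overlap or lie on opposite strands cannot be separated here, since the counting is not given.

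The groups of this paragraph had 0 genes called in slope. Of 79 cytosolic ribosomal protein genes 0 were called, with a median difference of -0.0078 that turned positive with library size alone and with TPM. Of 74 nuclear genes of oxidative phosphorylation 0 were called, although 60 had a negative difference (median -0.042). Of 30 cholesterol and lipid synthesis genes 0 were called in slope and 3 were lower in the change from 0 to 4 h, against 0.691% of all genes. Their median difference was -0.083, and in 8 of the 30 the cKO-labelled culture slopes lay all below those of WT, against 7.81% of all genes. Immediate early and other short-lived transcripts were the fastest lost of the lists, with a median slope of -0.95 in WT and -1.09 in the cKO-labelled cultures over 41 genes. In 12 of the 41 the cKO-labelled culture slopes lay all below those of WT, and in 2 all above, against 7.81% and 12.1% of all genes. Their median difference of -0.14 came down to -0.0082 without cKO-labelled sample 1 at 0 h and to -0.022 without sample 2. Jun, the AP-1 subunit, had a difference of -0.60 (SE 0.229, adjusted p = 0.225).

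**Figure D4:**
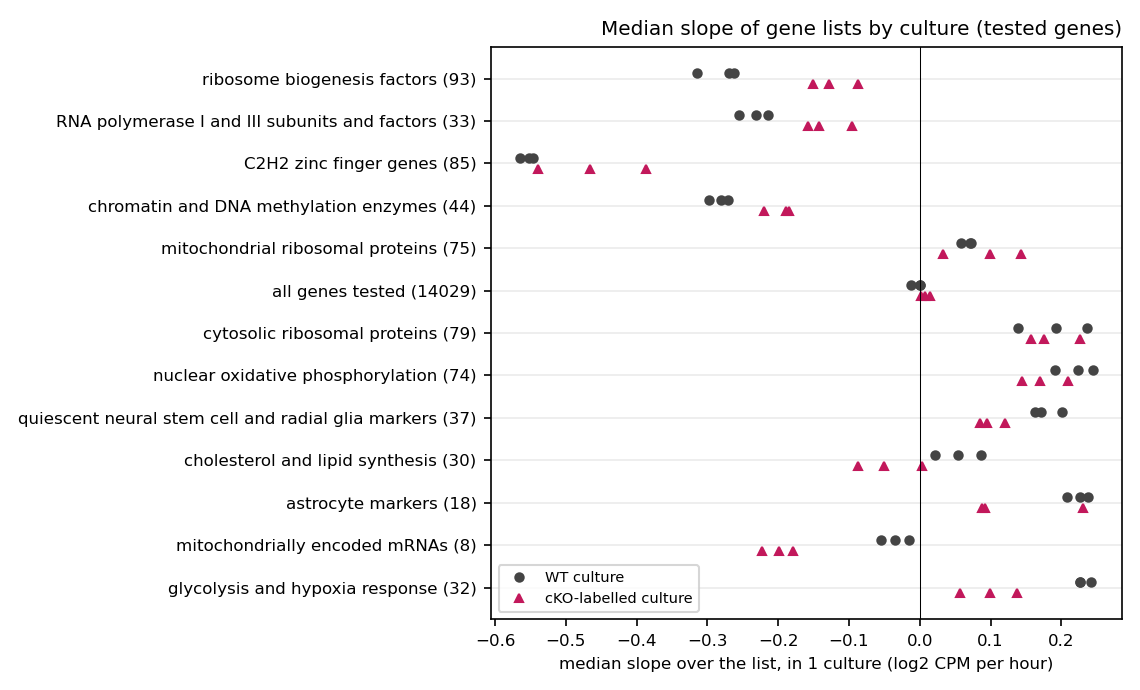
Median slope over the tested members of 12 gene lists, and over all genes tested, in each culture (x axis, log2 CPM per hour); the number of genes is in brackets, grey circles are the 3 WT cultures and pink triangles the 3 cKO-labelled cultures. The cultures of the 2 genotypes overlap for astrocyte markers, nuclear oxidative phosphorylation, cytosolic ribosomal proteins and mitochondrial ribosomal proteins, and lie apart for the other lists shown, narrowly so for C2H2 zinc finger genes.

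Machinery that handles m6A and mRNA decay was described from lists as well. Of 24 writers, erasers and readers of m6A, 0 passed in slope, against 0.634% of all genes. In the change from 0 to 4 h 1 of the 24, Ythdf2, was higher, against 1.42% of all genes. Ythdf1, a related reader, fell in both genotypes (slopes -0.66 and -0.38), with a difference of 0.28 (adjusted p = 0.151). Of 50 genes of the mRNA decay machinery 0 passed, and their median difference was 0.034. Cnot2 and Dcp2, a scaffold of the deadenylase and the decapping enzyme, had differences of 0.19 and 0.25, with adjusted p values of 0.127 and 0.205.

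The pull-downs from WT cells give a readout that the slopes did not use. Over all genes tested there, 858 were higher (6.06%) and 2023 lower (14.3%) in m6A over input, 4373 higher (30.7%) and 2490 lower (17.5%) in YTHDF2 over input, and 2040 higher (14.3%) and 47 lower (0.33%) in YTHDF2 over IgG. YTHDF2 and input samples are named here by descriptions and column names, which the sample titles exchange. By the titles every direction in YTHDF2 over input would turn round, to 2490 higher and 4373 lower, and the contrast with IgG would use other samples. m6A over input was higher for 853 of 13350 genes that were tested in both assays (6.39%), and YTHDF2 over input for 4081 of 13336 (30.6%). Among the 65 genes with a higher slope, 16 of 65 (24.6%) were m6A-higher and 35 of the 63 measured (55.6%) were higher in the YTHDF2 pull-down over input. Over IgG the count was 27, against 14.9% of all genes. These YTHDF2 counts come from a fit without the replicate number. With that number as a block YTHDF2 over input called 5549 genes higher and 3526 lower, and YTHDF2 over IgG 3134 and 1268. In the blocked fits 40 of the 63 (63.5%) were higher over input and 35 (55.6%) over IgG, against 38.6% and 22.6% of all genes. The m6A count rested on single replicates: without m6A replicate 1 it was 4 of 65, against 1.62% of all genes, and without m6A replicate 3 it was 0, against 0.335%. Those fits called 218 and 45 genes m6A-higher in all, against 858. Among the 24 genes with a lower slope, 1 was m6A-higher and 6 were m6A-lower (15.1% of all genes), and 5 were higher and 7 lower (18.6% of all genes) in YTHDF2 over input. With the block the counts in YTHDF2 over input were 6 and 12, against 38.6% and 26.3% of all genes. The slope difference contains the WT slope, and m6A-higher genes fell faster in WT, so the slope difference and the pull-downs are not free of each other through that shared term.

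Genes higher in all 3 pull-down contrasts numbered 360, and 11 of them (3.06%) had a higher slope in the cKO-labelled cultures and 0 a lower one, against 0.463% and 0.171% of all genes. Without replicate 1 of the pull-downs they numbered 88, with 2 higher, and without replicate 3 they numbered 6, with 0. With the replicate number as a block they numbered 1090, of which 22 (2.02%) had a higher slope and 4 (0.367%) a lower one. The absence of lower genes thus held only without the block. The median slope of the 360 was -0.28 in WT and -0.17 in the cKO-labelled cultures. Gemin4, Pde4d, Asb8, Bag5 and Polr3f, described above, were among the 11. Gemin4 had log2 ratios of 0.38 for m6A over input, 1.86 for YTHDF2 over input and 1.82 for YTHDF2 over IgG, and Bag5 had 0.41, 0.87 and 1.31. For Asb8 the ratios were 0.33, 1.25 and 2.08. Not every leading gene was in the pull-downs: Ddx10 had ratios of 0.30, 0.12 and -0.15, of which 0 passed the test, and Srsf3 was lower in the m6A pull-down, at -0.78 (adjusted p = 0.000159).

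Across all genes the difference between genotypes graded with the pull-downs. Genes were ordered by each ratio and divided into 10 equal bins. From the lowest to the highest bin by m6A over input, the median slope ran from 0.16 to -0.15 in WT and from 0.13 to -0.076 in the cKO-labelled cultures. The median slope difference was -0.023 in the lowest bin, 0.062 in the bin next to the highest and 0.054 in the highest. By YTHDF2 over input the median slope ran from 0.17 to -0.21 in WT and from 0.12 to -0.15 in the cKO-labelled cultures. The median slope difference of the 853 m6A-higher genes was 0.067, and it stayed between 0.025 and 0.081 in the fits that leave out 1 RNA-seq sample. Over the 45 genes that were m6A-higher without m6A replicate 3 it was -0.0069. That of the 2011 m6A-lower genes was -0.014, and turned positive with library size alone and with TPM. In 22.4% of m6A-higher genes the cKO-labelled culture slopes lay all above those of WT, against 12.1% of all genes. m6A-higher genes were also longer. Their length index, taken from deposited counts over TPM and relative to the sample's median gene, had a median of 1.38, against 0.524 for m6A-lower genes. The slope difference graded with that index too, from -0.029 in the bin of the shortest genes to 0.034 in that of the longest, and the part of length in the pull-down pattern was not tested.

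**Figure D5:**
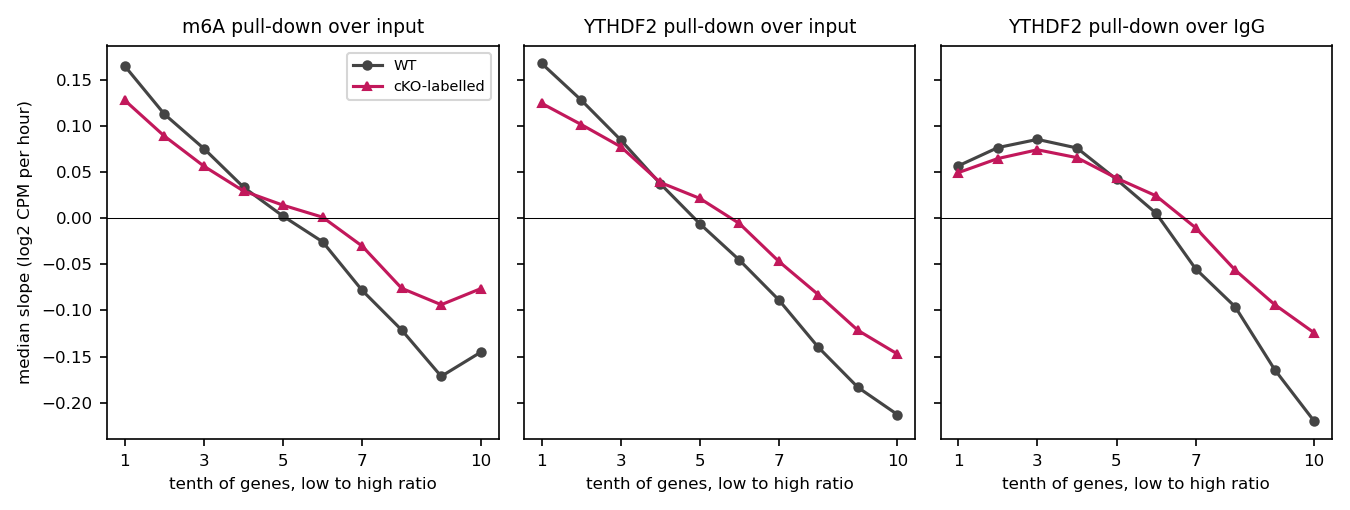
Median slope in log2 CPM per hour (y axis) for 10 equal bins of genes ordered by m6A over input, YTHDF2 over input and YTHDF2 over IgG (x axis, low to high ratio), in WT (grey circles) and cKO-labelled cultures (pink triangles). Genes with high ratios were lost faster in both genotypes, and the distance from 0 was smaller in the cKO-labelled cultures at both ends of the first 2 panels. YTHDF2 and input samples are named by descriptions and column names, which the sample titles exchange.

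By interval, no gene passed the test on its own. From 0 to 2 h edgeR called 0 genes higher and 0 lower (0% of 14029), with 1300 genes at an unadjusted p under 0.05 and a smallest adjusted p of 0.0516, which Enc1 and Abi2 share with a few other genes. From 2 to 4 h it called 0 and 0 (0%), with 571 genes at an unadjusted p under 0.05 and a smallest adjusted p of 0.209, that of Ddx10. DESeq2 called 66 genes higher and 94 lower in the first interval and 1 in each direction in the second.

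The number of genes called rested on single samples. Without cKO-labelled sample 1 at 0 h, 275 genes had a higher slope and 219 a lower one, and all 89 genes were among them. Without WT sample 3 at 4 h the counts were 0 and 0, and without WT sample 1 or WT sample 3 at 0 h they were 1 and 0 each. Without any 1 of the 3 WT cultures as a whole they were 0 and 0. Without cKO-labelled culture 1, 2 or 3 they were 295 and 184, 10 and 3, and 12 and 11. Among the genes described, Polr1b, Mtor and Nfia kept their call in 4 of the 18 fits that leave out a sample, and Ptbp1 and Mrpl15 in 2. Leaving out a WT sample gave, for samples 1, 2 and 3, a total of 1, 17 and 1 called genes at 0 h, 34, 34 and 32 at 2 h, and 8, 38 and 0 at 4 h. Leaving out a cKO-labelled sample gave 494, 37 and 93 at 0 h, 180, 42 and 70 at 2 h, and 43, 44 and 14 at 4 h. The sign of the slope difference was kept by all 89 genes in all 18 fits that leave out a sample, all 6 that leave out a culture and all 7 other settings. These fits reuse most of the data that chose the 89, so the kept sign is no separate test.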

How the data were processed

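RNA-seq, m6A pull-down and YTHDF2 pull-down libraries were read as counts per gene symbol, which the authors deposited beside TPM tables. Per the submitters' processing notes, bcl2fastq 2.17.1.14, Trimmomatic 0.32, STAR 2.5.2a and GRCm38 were used. Counter, annotation and strand setting: not given in the sources used here. The authors deposited TPM values (scaled per sample and for gene length), used here only for an alternative and for the length index. Of 26621 symbols, 22003 matched RefSeq (GRCm38.p6).

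Counts were tested with edgeR 4.0.16 (quasi-likelihood, R 4.3.3) after filterByExpr, with TMM factors, a term for each of 6 cultures and a slope per genotype (10 residual degrees of freedom). A fit with 3 separate hours gave the changes from 0 to 2, 2 to 4 and 0 to 4 h (8 residual degrees of freedom). P-values were adjusted by Benjamini-Hochberg over all genes tested, with a threshold of 0.05. SE is the fold change over the square root of F. The script was tested on simulated data. RNA-seq replicate numbers were taken as cultures because residuals of samples with one number and genotype correlated positively. They correlated at 0.126 to 0.286 in WT (median 0.184) and at 0.337 to 0.719 in the cKO-labelled cultures (median 0.396). Across genotypes the median was 0.025, so numbers did not pair WT with cKO-labelled cultures. In the YTHDF2 series same-numbered samples correlated at 0.353 to 0.646, so numbers were taken to pair them. The fit without the number gives the counts unless the replicate block is named. There, groups follow the descriptions and column names, since the titles exchange Input and YTHDF2.

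Members and gene lists were chosen with earlier results of these data known, and 3 lists were added after the slope differences were seen. Named genes are Ythdf2, the 12 called genes with the largest difference in each direction (mean log2 CPM of at least 3, no clone or predicted name, culture slopes that do not overlap), each list's 4 tested members of smallest p, and examples said to be picked later. Some genes that this rule names are not reported here. Totals ran from 12892222 to 28334300 counts in the m6A series and from 8419106 to 23097887 in the YTHDF2 series, so low genes have few counts in some samples. Alternatives were no culture term, DESeq2 1.42.0, other scalings, no low-count filter, limma 3.58.1 on log2(TPM + 1), and leaving out samples or cultures.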

Additional observations from a re-analysis of the deposited data

Results flagged for a closer look

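The time course differed between the genotypes by a test of the difference itself, the genotype by hour term, for 65 genes with a higher and 24 with a lower slope in the cKO-labelled cultures. The slope differences below are in log2 CPM per hour, cKO-labelled minus WT, and each passed edgeR's quasi-likelihood test at an adjusted p under 0.05, with all 3 culture slopes of one genotype beyond the 3 of the other. That second condition held for all 65 and all 24 genes. It uses the same samples as the test and was part of the rule that chose the largest differences, so it is no separate support.

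Among the genes with the largest positive differences, Enc1 had 0.55, Gemin4 0.54, Camk1d 0.49, Zfp828 0.48, Mterfd2 0.48 and Pde4d 0.47. Dcun1d4 followed with 0.42, Ddx10 with 0.41, Asb8 and Polr1b with 0.39 each, and Tmem11 and Bag5 with 0.38 each. The other ribosome biogenesis factors were Shq1 with 0.56, Gpatch4 with 0.36, Mphosph10 with 0.33, Lsg1 with 0.31, Nolc1 with 0.29, Dhx33 with 0.26 and Mki67ip with 0.24. The polymerase subunits Polr1e and Polr3f had 0.31 and 0.25, and the mitochondrial ribosomal protein gene Mrpl15 had 0.18. Among splicing regulators Ptbp1 had 0.23 and Srsf3 0.21. Gpr17, with 8 counts or fewer in every cKO-labelled sample, had 0.98.

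Among the genes with negative differences, Hdac9 had -0.46, Chst2 -0.38, Qk -0.31, and Slc39a12 and Abi2 -0.28 each. Bnip3 had -0.27, Grm5 and Tspan12 -0.25 each, Tmem229a and Lxn -0.24 each, and Lyrm5 -0.22. The stem cell genes Nfia and Nfib had -0.21 each and Fabp7 -0.13, and the mitochondrial mRNA mt-Nd4 had -0.17.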

How the results depend on the processing

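Counts of called genes depended on the setting. The 89 genes kept their sign in every alternative run. They were chosen for that difference in the same data, most of which each run reuses, so the kept sign was largely set by the choice. Counts are given as higher, then lower. For the slope difference (65 and 24) they were 276 and 281 with DESeq2, 46 and 54 with RLE factors, 132 and 16 with library size alone, 23 and 5 with scaling to ribosomal protein genes, 207 and 230 without the low-count filter, and 159 and 23 with limma on TPM. Leaving out 1 sample gave 0 to 275 and 0 to 219, and leaving out 1 culture 0 to 295 and 0 to 184. For the change from 0 to 2 h (0 and 0) they were 66 and 94 with DESeq2, 3 and 5 with RLE factors, 2 and 0 with library size alone, 22 and 32 without the filter, 27 and 17 with limma, and 0 to 231 and 0 to 398 without 1 sample. For 2 to 4 h (0 and 0) DESeq2 gave 1 and 1, and leaving out 1 sample 0 to 4 and 0 to 3. For 0 to 4 h (199 and 97) they were 403 and 436, 132 and 129, 365 and 71, 55 and 21, 221 and 203, and 469 and 120 in the order of the slope settings, and 2 to 816 and 1 to 735 without 1 sample. Slopes in WT (3201 rose, 3989 fell) were 1428 and 5180 with library size alone and 173 and 7151 with ribosomal scaling, and slopes in the cKO-labelled cultures (2821 and 3127) 1212 and 3955, and 59 and 6989. The cause was not tested. Low depth limits the 3 called genes that had 3 or fewer counts in a sample.

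With no replicate block, the slope difference called 1 gene higher and 0 lower, the change from 0 to 4 h 3 and 0, the WT slope 2236 and 3434, and the cKO-labelled slope 1757 and 2559. The replicate block moved m6A over input from 858 and 2023 to 2441 and 2932, YTHDF2 over input from 4373 and 2490 to 5549 and 3526, and YTHDF2 over IgG from 2040 and 47 to 3134 and 1268. Without 1 replicate these were 45 to 956 and 847 to 1998, 2562 to 4398 and 1371 to 2424, and 1074 to 2016 and 0 to 41. In the m6A series same-numbered samples correlated at 0.071 to 0.427 (median 0.341), a range that covers the 0.126 to 0.286 of the WT RNA-seq cultures. These correlations do not settle whether the m6A numbers pair, and the fit without the block is the main one. In blocked fits 32 of the 65 genes with a higher slope were m6A-higher (18.2% of all genes), and of 1090 genes higher in all 3 contrasts 22 had a higher and 4 a lower slope. Groups taken from the titles exchange the directions of YTHDF2 over input, to 2490 and 4373.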

Other observations

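Some gene groups not described above had cKO-labelled culture slopes beyond those of WT in more members than the 12.1% (above) and 7.81% (below) of all genes, with 0 called in slope. Of 39 Notch and Wnt pathway genes 10 lay above and 2 below. Within this list Notch1, a receptor that keeps neural stem cells undifferentiated, had a slope difference of 0.32 (adjusted p = 0.101) and Tcf7l2, a transcription factor of Wnt signalling, -0.22 (adjusted p = 0.0533). Of 44 chromatin and DNA methylation enzymes 10 lay above and 3 below, and of 85 C2H2 zinc finger genes, whose mRNAs were lost fast in both genotypes (median slopes -0.57 and -0.52), 16 above and 4 below. The medians of these 3 lists each turned negative without at least 1 of the samples. Of 40 proliferation and mitosis genes 7 lay above and 0 below, with a median slope difference of 0.044 that also turned negative without 1 of the samples.

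Of 29 TGF-beta and activin signalling genes 0 were called, and their median slope difference of 0.11 was 0.025 on the TPM scale. Neuronal lineage markers leaned the other way, with 6 of 17 below and 2 above, against 7.81% and 12.1% of all genes, and a median of -0.069. Their summed level was 1314 to 1920 CPM in WT and 347.3 to 1114 CPM in cKO-labelled samples, and its part in these values was not tested.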
